A study of Homo sapiens with 6 samples.

Results

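Homologous recombination (HR) and Fanconi anemia genes were examined in MCF10A cells with and without knockdown of DAB2IP. The set held 33 genes of the 58735 in the count table. They were chosen by name, as the rows whose gene symbol belongs to a list of double-strand break signaling, HR and Fanconi anemia genes, a rule that uses no measured value, but the list itself was drawn up with earlier results of these data known. Total RNA of 6 libraries was sequenced, 3 from cells given a nontargeting control siRNA pool (siControl, genotype label WT) and 3 from cells given siRNA against DAB2IP (siDAB2IP, genotype label DAB2IP knockdown), all collected 48 hours after transfection. MCF10A is a cell line from nonmalignant human breast epithelium, grown here with horse serum, insulin, epidermal growth factor, cholera toxin and hydrocortisone in both groups. DAB2IP encodes a Ras GTPase-activating scaffold protein. The knockdown was transient and was made in a single cell line, and the labels do not say whether the libraries of a group came from separate cultures, so p-values measure the spread between these libraries, which may be technical.

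HR repairs DNA double-strand breaks by copying an intact sister chromatid, which makes it a process of the S and G2 phases. Broken ends are resected to single strands, BRCA1 and BRCA2 with their partners prepare the strands for invasion of the sister, and the joint molecules that follow are dissolved or cut. The Fanconi anemia proteins deal with interstrand crosslinks and stalled forks: a core complex places ubiquitin on the FANCD2-FANCI pair, which then recruits nucleases and HR factors. Inherited mutations in several of these genes predispose to breast and ovarian cancer, and many of the genes are transcribed most in cycling cells.

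To show where the genes begin, promoter sequences from RefSeq (build GRCh38.p14) were searched for a pair of motif types linked with cell cycle transcription. A window of 250 bases upstream and 50 bases downstream of a start was on hand for 29 of the 33 genes, all but RAD54B, RMI2, FANCI and NBN. The E2F type was searched as TTTCCCGC, TTTGGCGC, TTTCGCGC and TTTGCCGC and the CHR type as TTTGAA and TTCGAA, on both strands. Spellings of one type cannot overlap those of the other, while each E2F-type spelling can overlap its own reverse complement. Of the genes that fell with knockdown, as described further on, BRIP1 and FANCA were the ones with a match upstream of the start, and their upstream windows are shown on the strand of the gene with the match in capitals. BRIP1 (chr17:61863529-61863778, minus strand) holds TTTGAA and FANCA (chr16:89816658-89816897, minus strand) holds TTTGCCGC, each on the opposite strand.

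BRIP1: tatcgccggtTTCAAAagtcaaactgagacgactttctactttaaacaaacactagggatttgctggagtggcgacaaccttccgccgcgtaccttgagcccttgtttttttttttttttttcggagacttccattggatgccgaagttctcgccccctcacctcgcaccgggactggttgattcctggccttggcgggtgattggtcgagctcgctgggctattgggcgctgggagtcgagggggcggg

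FANCA: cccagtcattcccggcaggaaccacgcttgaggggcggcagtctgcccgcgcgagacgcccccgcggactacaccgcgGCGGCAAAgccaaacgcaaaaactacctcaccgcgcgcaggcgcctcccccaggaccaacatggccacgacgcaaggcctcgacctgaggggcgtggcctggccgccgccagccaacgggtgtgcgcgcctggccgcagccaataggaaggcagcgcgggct

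The FANCA window stops at 240 bases, since its last 10 bases are annotated as exon. Matches of the E2F type around the start of the other genes are shown within 30 bases each, again with the match in capitals, to set genes that fell (EXO1 and XRCC2) beside genes that did not pass the test (FANCD2, TOPBP1, RMI1 and FANCC). These were chosen after the expression values had been seen. Their positions are chr1:241848197-241848226 on the plus strand (EXO1), chr7:152676102-152676131 on the minus strand (XRCC2), chr3:10026424-10026453 on the plus strand (FANCD2), chr3:133661930-133661959 on the minus strand (TOPBP1), chr9:83980762-83980791 on the plus strand (RMI1) and chr9:95317737-95317766 on the minus strand (FANCC, the nearer to the start of its 2 matches).

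EXO1: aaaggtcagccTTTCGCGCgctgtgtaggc

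XRCC2: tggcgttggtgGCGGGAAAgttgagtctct

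FANCD2: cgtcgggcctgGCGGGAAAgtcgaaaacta

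TOPBP1: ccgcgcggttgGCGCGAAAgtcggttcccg

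RMI1: ggcgcgagcgcGCGGCAAAtcgggcgggaa

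FANCC: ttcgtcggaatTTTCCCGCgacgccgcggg

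In all, 7 of the 29 genes with a window (24.1%) held an E2F-type match in the 300 bases, against 6.51% of the 10600 tested genes with a window and 3.99% of all 27305 genes with one. In the 250 upstream bases alone the match was found in 3 genes (10.3%), against 5.51% of the tested genes. Among the 29, the match was found in 3 of the 9 genes that fell and in 4 of the 20 without a call, so it was present on both sides. A CHR-type match was found in 4 genes (13.8%), UBE2T, FANCC, ATM and BRIP1, against 15.5% of the tested genes and 19.5% of all. A match is a description of the letters in the window, and a gene without one may hold other spellings or sites elsewhere.

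The knockdown was visible in each library. DAB2IP stood at 103, 94.2 and 77.4 CPM (counts scaled to library size with the TMM factors of edgeR) in siControl replicates 1, 2 and 3 and at 27.5, 25.6 and 22.4 CPM in siDAB2IP replicates 1, 2 and 3. Its log2 fold change was −1.86 ± 0.13 (SE), with an adjusted p of 9.71e-05. Here and below, log2 fold changes are siDAB2IP over siControl, and adjusted p-values come from edgeR's quasi-likelihood test with Benjamini-Hochberg adjustment over 15430 genes tested. "Fell" and "rose" stand for an adjusted p under 0.05. The libraries held between 16353783 and 21916062 counts, and 3 counts, the limit that a count of 0 allows, corresponded to 0.139 to 0.187 CPM. Of 7 epithelial markers, all were expressed (CDH1, EPCAM, KRT5, KRT14, KRT18, TP63 and ITGB4), and the basal keratin genes KRT5 and KRT14 fell by 0.97 and 1.52 on the log2 scale. Of 7 immune, endothelial and fibroblast markers, PTPRC, CD3E and LUM were at or near 0, DCN was at 201 ± 65.9 CPM (SD, n = 3) in siControl, and none of the 4 tested rose or fell. The summed level of these 4 was 162 to 290 CPM in siControl and 131 to 178 CPM in siDAB2IP, and its part in the results was not tested.

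Of the 33 HR and Fanconi anemia genes, all passed the filter on low counts, 11 fell with DAB2IP knockdown and 0 rose (0 were higher at an unadjusted p under 0.05 too). The genes that fell were CHEK1, CHEK2, EXO1, BRCA1, BRIP1, XRCC2, FANCA, FANCG, FANCM, FANCI and RMI2, which is 33.3% of the set, while 7.65% of all genes tested fell and 6.55% rose. The median log2 fold change of the 33 was −0.55 (range −1.32 to 0.25), against 0.01 over all genes tested, and 27 had a negative and 6 a positive value. For 19 genes (57.6%) the values of all siDAB2IP libraries lay under those of all siControl libraries, a pattern shown by 18.3% of all genes tested. The opposite pattern was shown by 1 gene, PALB2, and by 17.6% of all genes tested. For a single gene such a separation gives p = 0.1 in a two-sided exact permutation test, the lowest p that groups of 3 can reach.

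The count depended on single libraries. With siControl replicate 1 left out, 5 of the 33 fell. With either siControl replicate 2 or siControl replicate 3 left out, 3 fell, and with siDAB2IP replicate 1 left out, 7. Each of these fits had fewer samples. The number of all genes that fell also moved between the fits with a library removed, as given further on. The count was 11 without siDAB2IP replicate 3, of which 9 were among the 11 above, and the median of the 33 genes then was −0.32. Without siDAB2IP replicate 2 the count was 15, of which 10 were among the 11 above. CHEK1 and XRCC2 fell in each of the 6 fits with a library removed, BRIP1 in 5, EXO1 and FANCG in 4, BRCA1 in 3, FANCA, FANCM and FANCI in 2, and CHEK2 and RMI2 in 1. Over all 16 alternatives the call was lost in 1 for XRCC2, 2 for CHEK1, 5 for EXO1, 6 for BRCA1, 8 for CHEK2 and 9 for FANCI, and over the 14 that gave a value for BRIP1 and RMI2 it was lost in 3 and 7.

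**Figure D1:**
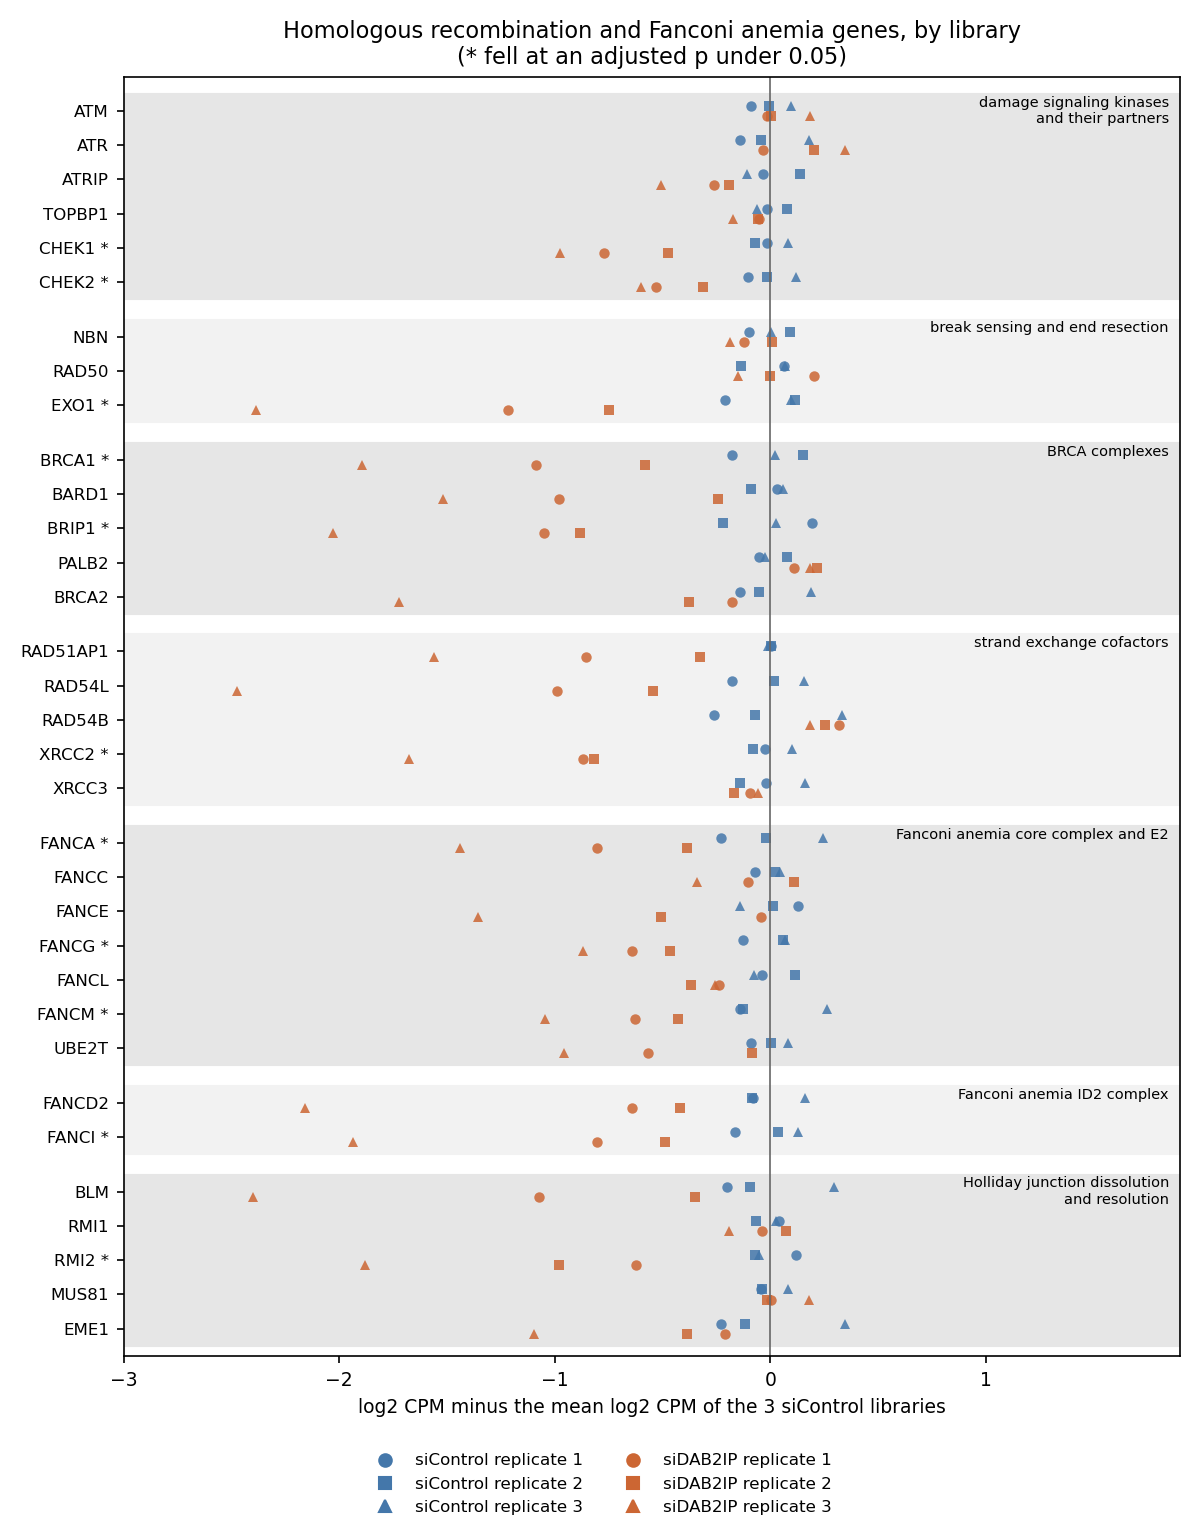
Expression of the 33 genes in each library, as log2 CPM minus the mean log2 CPM of the 3 siControl libraries (x axis), by gene and role (y axis). Blue points are siControl and orange points siDAB2IP libraries, shapes give the replicate number and an asterisk marks the 11 genes that fell, whose lowest point is siDAB2IP replicate 3 in each case.

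Among the damage signaling genes, the effector kinases fell while the apical kinases did not pass the test. CHEK1 (chromosome 11, 125625136 to 125676255), the kinase that carries the ATR signal, was at 33.8, 32.5 and 36.2 CPM in siControl and at 20.0, 24.5 and 17.3 CPM in siDAB2IP, a log2 fold change of −0.73 ± 0.14 (adjusted p = 0.0101). CHEK2 (chromosome 22, 28687743 to 28742422), the kinase that carries the ATM signal, was at 18.1, 19.2 and 21.1 CPM and then at 13.4, 15.6 and 12.8 CPM (−0.48 ± 0.14, adjusted p = 0.0445). The groups did not overlap for either gene, and siDAB2IP replicate 3 was the lowest for both. With scaling by library size only, CHEK2 no longer passed (adjusted p = 0.0544, range over all alternatives 0.0331 to 0.133). ATM, the kinase activated by double-strand breaks, was at 145, 153 and 165 CPM in siControl and 153, 155 and 176 CPM in siDAB2IP (0.06 ± 0.10, adjusted p = 0.741). ATR, the kinase activated by exposed single strands, differed by 0.17 ± 0.12 on the log2 scale (adjusted p = 0.391), and TOPBP1, an ATR activator, by −0.09 ± 0.09 (adjusted p = 0.544). Values of both groups overlapped for these 3 genes. ATRIP, the partner that brings ATR to single strands, was lower in each siDAB2IP library than in any siControl library without passing (−0.32 ± 0.14, adjusted p = 0.157). Of its exon bases, 27.9% are also annotated to TREX1 on the same strand.

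In break sensing and end resection, EXO1 had the lowest log2 fold change of the 33 genes. EXO1 (chromosome 1, 241847967 to 241895148), the exonuclease of long-range resection, was at 18.7, 23.4 and 23.2 CPM in siControl and at 9.25, 12.8 and 4.06 CPM in siDAB2IP, a log2 fold change of −1.32 ± 0.32 (adjusted p = 0.0231). The groups were apart, although siDAB2IP replicates 2 and 3 differed more from each other than the siControl libraries did. NBN and RAD50, subunits of the complex that senses ends, had log2 fold changes of −0.10 ± 0.10 (adjusted p = 0.552) and 0.03 ± 0.15 (adjusted p = 0.933). For both the groups overlapped, and 79.7% of the exon bases of RAD50 are shared with a second annotated gene on the same strand, so its counts are uncertain.

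Of the BRCA complexes, BRCA1 and its helicase partner fell. BRCA1 (chromosome 17, 43044295 to 43170245), which with BARD1 forms a ubiquitin ligase that promotes resection, was at 25.4, 32.0 and 29.2 CPM in siControl and at 13.5, 19.2 and 7.65 CPM in siDAB2IP (log2 fold change −1.10 ± 0.26, adjusted p = 0.0232). BRIP1 (chromosome 17, 61681266 to 61863521), the helicase that binds BRCA1 and whose upstream window is shown above, was at 12.8, 9.61 and 11.4 CPM and then at 5.36, 6.04 and 2.67 CPM (−1.26 ± 0.27, adjusted p = 0.0148). For both genes all siDAB2IP libraries lay below all siControl libraries. BARD1 was at 8.85, 8.12 and 9.04 CPM in siControl and at 4.34, 7.31 and 2.96 CPM in siDAB2IP, a log2 fold change of −0.83 ± 0.28 with an adjusted p of 0.0782. It passed with the replicate number as a block (adjusted p = 0.0413, range over all alternatives 0.00189 to 0.259). BRCA2, which acts after resection to start strand exchange, was at 13.3, 14.1 and 16.7 CPM in siControl and at 12.9, 11.2 and 4.35 CPM in siDAB2IP (−0.63 ± 0.31, adjusted p = 0.215). Its groups were separate by a small margin in replicate 1, and its difference came mostly from siDAB2IP replicate 3. PALB2, the bridge between BRCA1 and BRCA2, was at 17.3, 18.9 and 17.6 CPM and then at 19.3, 20.8 and 20.4 CPM (0.17 ± 0.12, adjusted p = 0.379), the single gene of the set with each siDAB2IP library above each siControl library.

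The outermost annotated start of BRCA1 lies 236 bp from that of NBR1, an autophagy receptor gene transcribed in the other direction. Starts in this comparison are the outer edges of the annotated genes. Other starts of the same genes were not examined, and the start in use in these cells may lie elsewhere. A shared promoter was therefore not tested. NBR1 fell as well, from 129 to 79.1 CPM on average (log2 fold change −0.70, adjusted p = 0.0123). In all, 8 of the genes had a tested neighbor on the opposite strand with an outer start within 1000 bp. NBR1 was the only neighbor of the 8 that rose or fell, while 7.65% of all genes tested fell and 6.55% rose. FANCM, the other gene of these 8 that fell, lies 621 bp from FKBP3, whose log2 fold change was −0.15 (adjusted p = 0.393).

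The cofactors of strand exchange gave 1 gene that fell, XRCC2, which had the smallest adjusted p of the set. XRCC2 (chromosome 7, 152644779 to 152676165), which supports strand exchange, was at 27.4, 26.3 and 29.9 CPM in siControl and at 15.2, 15.7 and 8.64 CPM in siDAB2IP (log2 fold change −1.08 ± 0.20, adjusted p = 0.00909). The groups were far apart, and XRCC2 was the only one of the 33 genes with an adjusted p under 0.01. XRCC3, a relative of XRCC2, differed by −0.11 ± 0.13 on the log2 scale (adjusted p = 0.607), and 76.7% of its exon bases are shared with KLC1 on the opposite strand. RAD54L, a DNA translocase of strand exchange, was at 13.0, 14.9 and 16.4 CPM in siControl and at 7.33, 10.0 and 2.55 CPM in siDAB2IP (−1.15 ± 0.36, adjusted p = 0.0610). RAD51AP1, which helps joint molecules form, was at 6.23, 6.22 and 6.16 CPM and then at 3.38, 4.93 and 2.03 CPM (−0.84 ± 0.28, adjusted p = 0.0745). Neither passed, though the groups did not overlap. Both passed with the replicate block, at adjusted p-values of 0.0304 for RAD54L (range over all alternatives 6.8e-08 to 0.204) and 0.0351 for RAD51AP1 (range over all alternatives 0.00552 to 0.207). RAD54B, a relative of RAD54L, had the highest log2 fold change of the set, 0.25 ± 0.29 (adjusted p = 0.614), at 1.25 to 1.94 CPM in siControl and 1.74 to 1.92 CPM in siDAB2IP. It shares 59.1% of its exon bases with FSBP.

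Of the set, 7 genes belong to the Fanconi anemia core complex or encode its conjugating enzyme, and 3 of these 7 fell, against 7.65% of all genes tested. FANCA (chromosome 16, 89737549 to 89816657), a core subunit, was at 34.2, 39.6 and 47.6 CPM in siControl and at 22.9, 30.6 and 14.7 CPM in siDAB2IP (log2 fold change −0.83 ± 0.23, adjusted p = 0.0393). FANCG (chromosome 9, 35073835 to 35080016), its binding partner in the core, was at 19.6, 22.3 and 22.4 CPM and then at 13.7, 15.5 and 11.7 CPM (−0.66 ± 0.14, adjusted p = 0.0166). FANCM (chromosome 14, 45135940 to 45200890), the translocase that anchors the core complex on DNA, was at 14.5, 14.6 and 19.1 CPM and then at 10.3, 11.8 and 7.65 CPM (−0.69 ± 0.19, adjusted p = 0.0382). For each of these genes the siDAB2IP libraries lay below all siControl libraries, with replicate 3 the lowest and replicate 2 the nearest to siControl. FANCA and FANCM each lost the call in 8 of 16 alternatives (highest adjusted p 0.193 and 0.220), and FANCG in 4 of 16 (highest 0.0752). FANCA shares 23.6% of its exon bases with ZNF276 on the opposite strand, which had a log2 fold change of −0.03. Of the 4 without a call, FANCE, a core subunit that contacts FANCD2, was at 22.3, 20.5 and 18.4 CPM in siControl and at 19.7, 14.3 and 7.89 CPM in siDAB2IP (−0.55 ± 0.27, adjusted p = 0.199). Its groups overlapped, and it passed with the replicate block (adjusted p = 0.0472, range over all alternatives 0.0112 to 0.396). FANCL, the ubiquitin ligase of the core, differed by −0.29 ± 0.14 on the log2 scale (adjusted p = 0.190), UBE2T, its conjugating enzyme, by −0.50 ± 0.20 (adjusted p = 0.129), and FANCC, a further core subunit, by −0.10 ± 0.15 (adjusted p = 0.705). Values of FANCL were apart between the groups, while those of UBE2T and FANCC overlapped.

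The substrates of the core complex were lowest in a single library. FANCI (chromosome 15, 89243949 to 89317261) was at 50.2, 57.7 and 61.5 CPM in siControl and at 32.2, 40.0 and 14.6 CPM in siDAB2IP (log2 fold change −0.96 ± 0.28, adjusted p = 0.0462). FANCD2 was at 28.8, 28.7 and 34.0 CPM and then at 19.5, 22.7 and 6.73 CPM (−0.90 ± 0.33, adjusted p = 0.0994). The 2 proteins form 1 complex, and their log2 fold changes differed by less than the SE of either, although only FANCI passed. The groups did not overlap for either gene. DESeq2 did not call FANCI (adjusted p = 0.101, range over all alternatives 8.58e-11 to 0.201).

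Of the genes that dissolve or cut Holliday junctions, RMI2 fell. RMI2 (chromosome 16, 11249619 to 11381662), a subunit of the BLM dissolvase complex, was the gene of lowest CPM among those that fell, at 4.05, 3.53 and 3.58 CPM in siControl and 2.37, 1.83 and 0.928 CPM in siDAB2IP (log2 fold change −1.12 ± 0.32, adjusted p = 0.0433). BLM, the helicase of the complex, was at 8.66, 9.33 and 12.3 CPM and then at 4.68, 7.81 and 1.80 CPM (−1.08 ± 0.39, adjusted p = 0.0949). RMI1, which binds RMI2 in this complex, differed by −0.05 ± 0.15 (adjusted p = 0.872). The groups were separate for RMI2 and BLM and overlapped for RMI1. MUS81 and EME1, the subunits of a junction-cutting endonuclease, had log2 fold changes of 0.06 ± 0.10 (adjusted p = 0.761) and −0.54 ± 0.25 (adjusted p = 0.181), with overlapping groups for both.

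**Figure D2:**
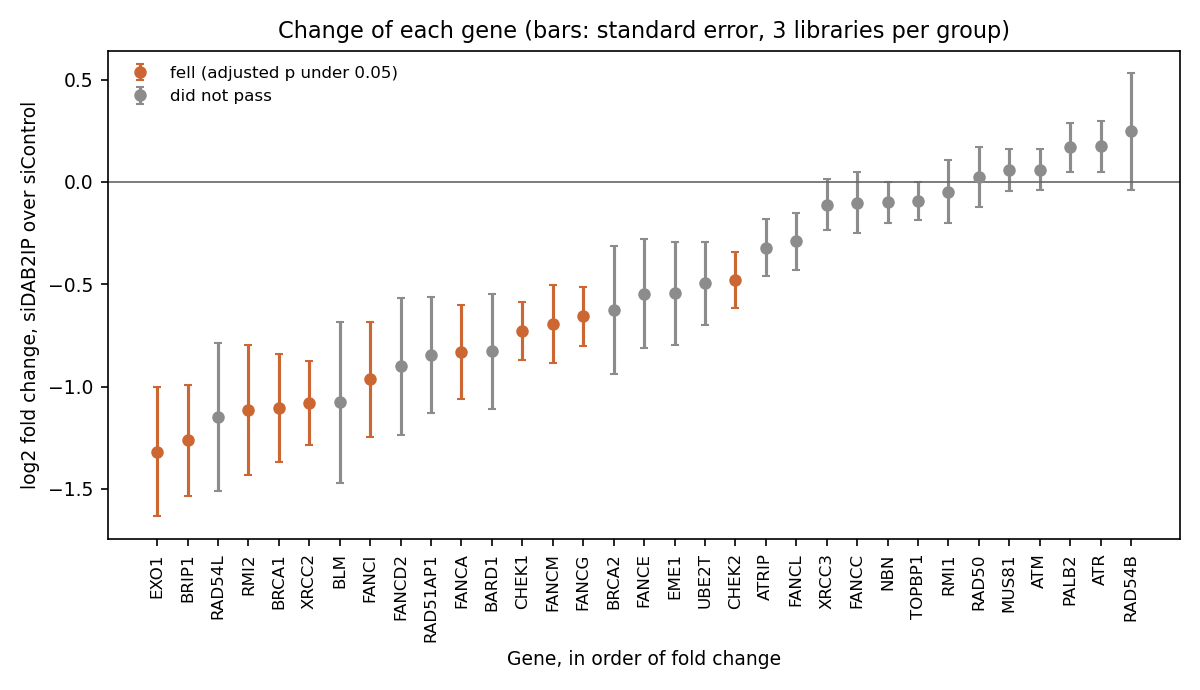
Log2 fold change of each of the 33 genes (y axis), in order of fold change (x axis). Points are edgeR estimates, bars are standard errors with 3 libraries per group, and orange points are the 11 genes that fell. Low values without a call, such as RAD54L at −1.15, have wide bars.

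The fold changes of the set were uneven. A log2 fold change of −1 or lower was seen in 7 genes, of which 5 fell, and 10 genes without a call lay within 0.2 of 0, among them ATM, ATR, NBN, RAD50, PALB2 and MUS81. Of the 22 genes without a call, 8 had siDAB2IP values entirely below the siControl values (ATRIP, BARD1, BRCA2, RAD51AP1, RAD54L, FANCL, FANCD2 and BLM). This pattern was shown by 18.3% of all genes tested. Compared per transcript length, mean FPKM values in siControl ran from 0.287 (RAD54B) to 11.5 (TOPBP1), with a median of 3.74, and the genes that fell lay between 1.01 (RMI2) and 7.21 (FANCI).

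The siDAB2IP libraries differed among themselves. For all 11 genes that fell, siDAB2IP replicate 3 was the lowest library, and for 10 of them replicate 2 was the highest of the 3, RMI2 being the exception. Over the 33 genes, 27 were lowest in siDAB2IP replicate 3 among the knockdown libraries and 21 were highest in replicate 2. Measured as log2 CPM against the siControl mean, the median of the 33 genes was −0.53, −0.35 and −0.97 in siDAB2IP replicates 1, 2 and 3, and the siControl libraries lay between −0.08 and 0.08. For the 11 genes that fell, these medians were −0.80, −0.49 and −1.68, and for the 22 others −0.11, −0.13 and −0.30. DAB2IP itself was lowest in siDAB2IP replicate 3 too, but its 3 knockdown values were close (22.4 to 27.5 CPM).

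Genes of DNA replication and mitosis moved alongside. Of 43 DNA replication genes (such as those of the replicative helicase and polymerases), 20 fell and 0 rose (median log2 fold change −0.73), and of 33 mitotic genes 21 fell and 0 rose (median −1.10). For both lists the count of genes that rose was 0 at an unadjusted p under 0.05 as well. Over all genes tested, 7.65% fell and 6.55% rose. Their medians in siDAB2IP replicates 1, 2 and 3 were −0.68, −0.40 and −1.02 for replication and −1.04, −0.55 and −2.26 for mitosis. This is the same order of libraries as in the HR and Fanconi anemia genes. The further pathway genes described below (−0.15, −0.02 and −0.21) and the epithelial markers (−0.17, −0.03 and −0.97) had this order too. The end joining genes (−0.03, −0.04 and −0.17) and the immune, endothelial and fibroblast markers (−0.22, −0.69 and −0.91) did not. The summed level of the mitotic genes was 1766 to 2589 CPM in siControl and 463 to 1456 CPM in siDAB2IP, and that of the replication genes was 1638 to 1757 CPM and 972 to 1331 CPM. The part of the cycling state in the fall of the repair genes was not tested. In bulk RNA, fewer cells of a type and less RNA per cell cannot be told apart. The paper that reported these data found increased proliferation of MCF10A cells after DAB2IP knockdown in a cell proliferation assay. That assay and these RNA levels were not compared here. With siControl replicate 2 left out, 4 replication and 0 mitotic genes fell, and with siControl replicate 3 left out, 6 and 0. Leaving out siControl replicate 1 gave 9 and 8, and leaving out siDAB2IP replicate 1 gave 12 and 5.

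**Figure D3:**
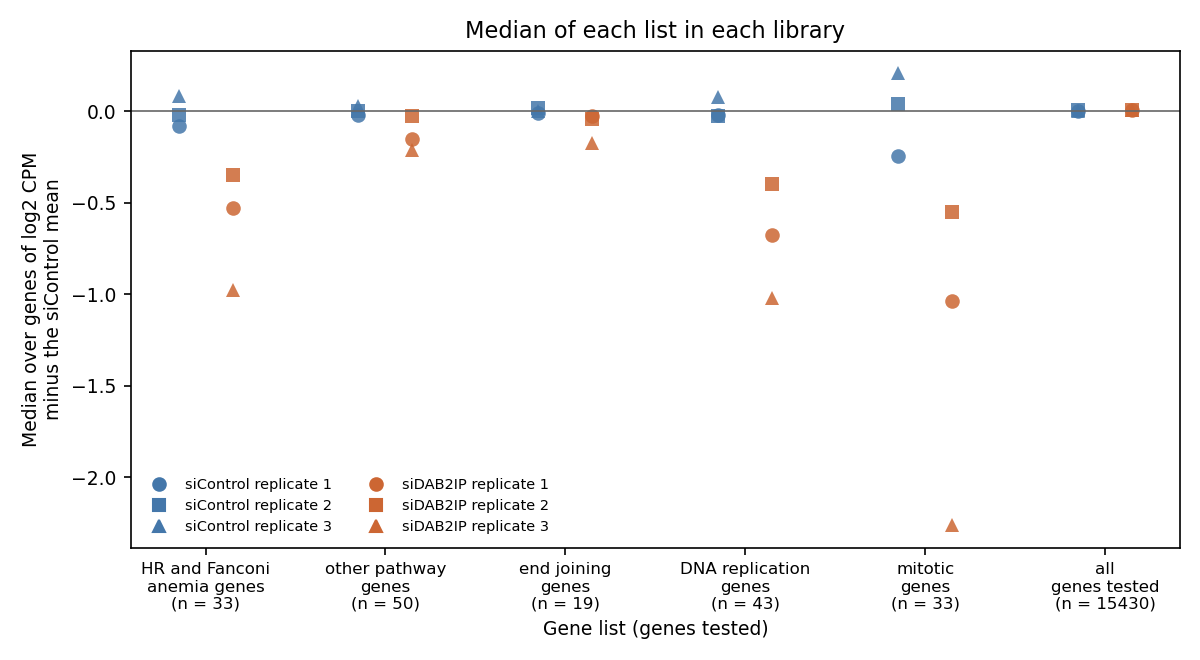
Median over the genes of each list of log2 CPM minus the siControl mean (y axis), by list (x axis). Blue points are siControl and orange points siDAB2IP libraries, with shapes for replicate numbers. In the HR and Fanconi anemia, other pathway, DNA replication and mitotic lists the siDAB2IP libraries follow the order replicate 2, 1 and 3 from high to low. The median of all genes stays near 0.

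Of 51 further genes of the HR and Fanconi anemia pathways outside the set, 50 were tested, 5 fell (10%) and 3 rose (6%), shares near the 7.65% and 6.55% of all genes tested, and their median log2 fold change was −0.11. Those that fell were GEN1, a Holliday junction resolvase (−0.96 ± 0.17, adjusted p = 0.0064), FIGNL1, an ATPase with a role in HR (−0.87 ± 0.17, adjusted p = 0.00975), USP1, which removes ubiquitin from FANCD2 (−0.62 ± 0.14, adjusted p = 0.0166), WRN, a RecQ helicase (−0.41 ± 0.11, adjusted p = 0.0353), and FANCB, a core complex subunit (−1.19 ± 0.33, adjusted p = 0.0386). The genes that rose were SLX4, ERCC1 and FAN1. SLX4, the scaffold of structure-specific nucleases that the Fanconi anemia pathway recruits, was at 17.1, 15.5 and 17.0 CPM in siControl and at 27.8, 27.7 and 30.7 CPM in siDAB2IP (0.80 ± 0.12, adjusted p = 0.0035). The siDAB2IP libraries agreed closely for SLX4 and all lay above siControl. ERCC1, a subunit of the XPF nuclease (0.44 ± 0.12, adjusted p = 0.0376), and FAN1, a crosslink nuclease (0.34 ± 0.10, adjusted p = 0.0410), share 28.6% and 24.3% of their exon bases with other genes. With the replicate block 8 of the 50 fell. Leaving out siControl replicate 1 gave 3 that fell and 2 that rose, leaving out siControl replicate 2 or 3 gave 2 and 1, and leaving out siDAB2IP replicate 1 gave 3 and 1. Leaving out siDAB2IP replicate 2 gave 1 that rose.

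In end joining, the repair route that needs no sister chromatid, 19 of 21 genes were tested, with a median log2 fold change of −0.10. LIG4, the ligase of the route, rose from 25.6, 25.3 and 27.8 CPM in siControl to 41.5, 35.1 and 55.0 CPM in siDAB2IP (0.74 ± 0.16, adjusted p = 0.0148), and PAXX, an accessory factor, rose by 0.46 ± 0.12 (adjusted p = 0.0326). Of the end joining genes, 1 rose with siControl replicate 3 or siDAB2IP replicate 2 left out, and 0 rose with siControl replicate 1 or 2 left out. Whether the HR genes and the end joining genes differed in their response was not tested.

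**Figure D4:**
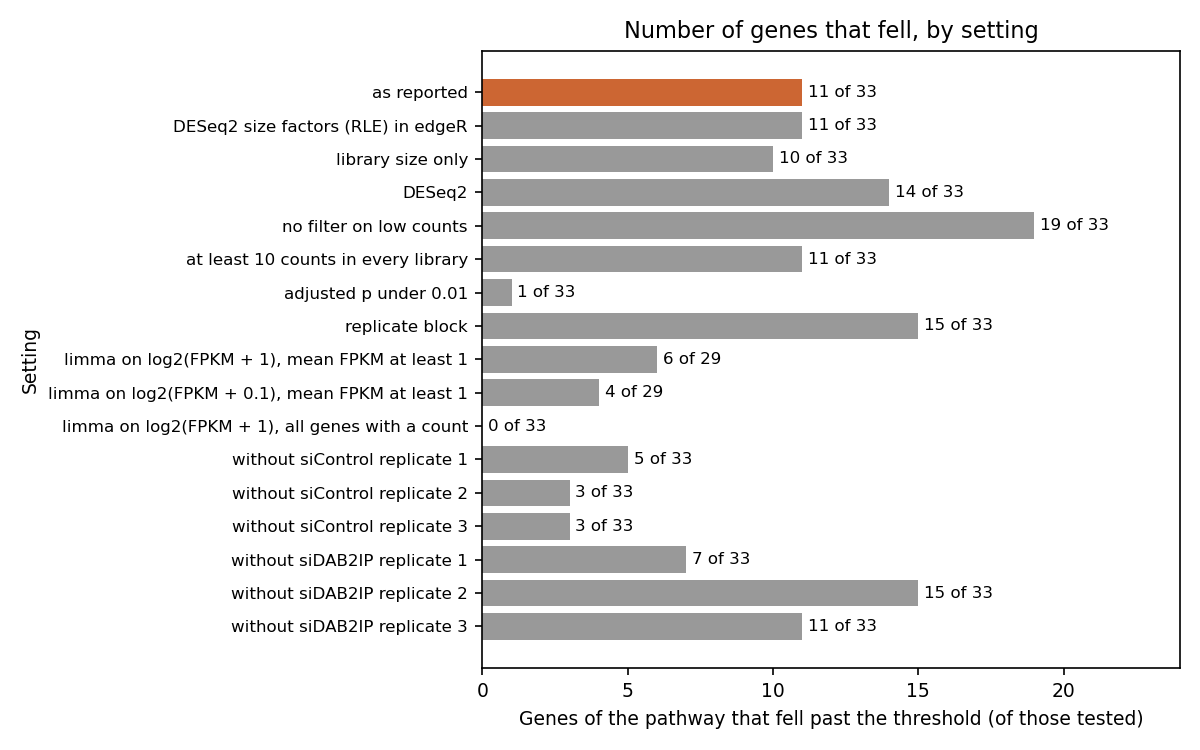
Number of the HR and Fanconi anemia genes that fell (x axis, with the number tested beside each bar) under each processing setting (y axis). The orange bar is the reported count of 11, and the gray bars run from 0 to 19.

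The counting may have joined or left out reads of overlapping genes, since its strand setting was not stated in the sources used here. The same-strand partners of ATRIP (TREX1), RAD50 and RAD54B (FSBP) held 0, 22 and 49 counts over the 6 libraries. What became of reads from shared exons was not tested. Of the 33 genes, 13 shared no exon base with another annotated gene and 6 shared over 20% (ATRIP, RAD50, RAD54L, RAD54B, XRCC3 and FANCA). Of the 27 others, 10 fell, against 7.65% of all genes tested.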

How the data were processed

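RNA-Seq was performed on total RNA of 6 MCF10A libraries, 3 per group, prepared and sequenced by Novogene. Per the submitters' processing notes, STAR 2.6.1d, featureCounts 1.5.0-p3, DESeq2 1.20.0, edgeR 3.24.3 and build hg38 were used, without a stated role. The authors deposited counts per gene and library, as whole numbers without normalization, and FPKM values, in which the authors divided counts by gene length and a scaled library total. All 58735 genes matched GENCODE release 29 in position and exon length. Strand and multimapping settings were not given in the sources used here.

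Tests on the counts used edgeR 4.0.16 under R 4.3.3 (filterByExpr with the groups, TMM, glmQLFit, glmQLFTest), with Benjamini-Hochberg adjustment over the 15430 genes tested and a threshold of 0.05. Standard errors are the absolute log2 fold change over the square root of F. The common biological coefficient of variation was 14.8%. Limits from counts cover counting error only. FPKM values were used for levels per length and, with limma 3.58.1, as an alternative. Scripts were tested on simulated counts. CPM differences of single genes were also tested by a two-sided exact permutation test.

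The 33 genes and the comparison lists were chosen with earlier results of these data known, so they are described by counts and medians without a test of the list. Every gene of the set was reported. Values in every library were given for genes that fell and for others the text turns on, and the other pathway genes and end joining genes named are those that rose or fell, apart from items not reported here. Upstream windows were to be printed for the first 4 genes that fell, in order of p, with a motif upstream, and 2 had one.

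The labels number the libraries 1, 2 and 3 in both groups. Deviations from the group means correlated at 0.26, 0.15 and 0.25 between libraries with the same number and at −0.28 to 0.02 between others, so the numbers appear to pair the libraries, although the labels do not say what they stand for. The reported fit leaves the pairing out, and the replicate block is an alternative. The alternatives were DESeq2 1.42.0, other scalings and filters, an adjusted p under 0.01, the replicate block, limma on FPKM, and fits with single libraries removed.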

Additional observations from a re-analysis of the deposited data

How the results depend on the processing

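Of the 11 HR and Fanconi anemia genes that fell, 11 fell with RLE scaling, 10 with library size only, 11 with at least 10 counts in every library and 14 (10 shared) with DESeq2. 19 fell (11 shared) with no filter on low counts, and 1 at an adjusted p under 0.01. With limma on FPKM, 6 of 29 fell at a pseudocount of 1, 4 of 29 at 0.1 and 0 of 33 at 1 with no filter on low FPKM. With the replicate block 15 fell, including all 11, and among the set it added BARD1, RAD51AP1, RAD54L and FANCE. It gave 8 other pathway genes and 2 end joining genes that fell. The share of all genes that fell is not given here for DESeq2, for no filter or for the replicate block. Leaving out each library gave 3 to 15 genes that fell, a set median of −0.75 to −0.32, 4 to 27 DNA replication genes, 0 to 29 mitotic genes and 2 to 6 other pathway genes that fell (1 to 3 rose), 0 to 1 end joining genes that fell (0 to 2 rose), and 459 to 1352 genes of all that fell and 264 to 1172 that rose.

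Mitotic genes that fell numbered 12 with DESeq2, 32 with no filter, 8 with limma at a pseudocount of 1, 4 at 0.1, and 0 at an adjusted p under 0.01. With no filter 2 end joining genes fell. At an adjusted p under 0.01, 2 other pathway genes fell and 1 rose, 0 end joining genes fell or rose, 2 replication genes fell, and of all genes 368 fell and 254 rose. With limma at a pseudocount of 1, 1 other pathway gene rose. At 0.1, 1 other pathway gene and 1 end joining gene rose, and of all genes 758 fell and 659 rose. With no filter on low FPKM, 0 other pathway, 0 end joining and 0 mitotic genes and 1 replication gene fell, 1 other pathway and 0 end joining genes rose, and of all genes 202 fell and 176 rose. The causes of these differences were not tested. Fits that left out a library or set a stricter threshold have less power by construction.

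Signs turned for genes without a call, and the fits that left out a library ranged as follows. ATM was at −0.003 without siControl replicate 1, and ranged from −0.0052 (siDAB2IP replicate 3 left out) to 0.096. RAD50 was at −0.06 without siControl replicate 2, and ranged from −0.074 (siDAB2IP replicate 1 left out) to 0.107. Without siDAB2IP replicate 3, FANCC was at 0.0060, RMI1 at 0.021 and MUS81 at −0.0070, the upper end of −0.219 to 0.0060 for FANCC and of −0.114 to 0.021 for RMI1 and the lower end of −0.0070 to 0.0924 for MUS81. None of the 11 genes that fell changed sign in these alternatives. Depth limits RMI2 and RAD54B most.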
